A study of Homo sapiens with 6 samples.

Results

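The genes described here encode 9 enzymes that make or convert non-essential amino acids outside the serine route: ASNS, PYCR1, ALDH18A1, CTH, CBS, GPT2, GOT1, ASS1 and BCAT1. They were taken from the deposited count table by gene symbol, and all 9 were found among its 58735 genes. The cells were VCaP, an established line of human prostate cancer in which TMPRSS2 is fused to ERG, sequenced after stable infection with an shRNA (short hairpin RNA) directed at NEDD9 (shNEDD9, 3 libraries) or with a non-targeting shRNA as control (shNTC, 3 libraries). Both kinds of cell grew in DMEM with 10% FBS, and the study asked which genes change when NEDD9, a scaffold protein of focal adhesions, is silenced. The number of hairpins used against NEDD9 is not given in the sources used here, nor whether the infected cells were a pool or a clone, so loss of NEDD9 and other effects of the hairpin cannot be told apart.

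Asparagine synthetase (ASNS) moves an amide group from glutamine to aspartate. Proline is made in mitochondria from glutamate, first by ALDH18A1, which forms pyrroline-5-carboxylate, and then by the reductase PYCR1. In transsulfuration, CBS joins homocysteine and serine to cystathionine, and CTH cleaves cystathionine to give cysteine. The aminotransferases GPT2 (mitochondrial, alanine), GOT1 (cytosolic, aspartate) and BCAT1 (cytosolic, branched-chain amino acids) pass amino groups between amino acids and keto acids. ASS1 joins citrulline and aspartate on the way to arginine. Several of these genes are known targets of ATF4, a transcription factor that cells make when amino acids run short or the endoplasmic reticulum is stressed.

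The libraries held 5956486, 7806980 and 9902002 counts in shNEDD9 and 7492244, 3217276 and 6452350 in shNTC. NEDD9 itself stood at 137 ± 1.03 CPM (counts scaled to library size) in shNEDD9 cells and at 355.7 ± 14.3 CPM in shNTC cells (SD, n = 3 each). All 12 markers of VCaP and prostate luminal cells were expressed highly enough to be tested, KLK3 among them. Of the markers of other cell types, 2 of 10 fibroblast, 3 of 10 endothelial and immune and 3 of 6 hepatocyte genes could be tested. The fibroblast list summed to between 48.5 and 56.2 CPM in shNEDD9 and between 27.6 and 35.5 CPM in shNTC, most of it LUM (45.2 CPM in shNEDD9 and 19.2 CPM in shNTC on average), while COL1A1 was called lower and the other 8 genes were too low to test. For the endothelial and immune list the sums were 8.01 to 8.27 CPM in shNEDD9 and 19.6 to 28.3 CPM in shNTC, and for the hepatocyte list 195.1 to 202.7 CPM in shNEDD9 and 181.5 to 199.5 CPM in shNTC. LYZ averaged 1.503 CPM in shNEDD9 and 16.8 CPM in shNTC within the immune sum, and ALB 174.2 CPM in shNEDD9 and 136.1 CPM in shNTC within the hepatocyte sum. THY1, CDH5, CD3E, CD68 and CYP3A4 had 0 counts in every library. For CD68, 81.7% of the exonic bases are shared with another gene on the same strand, so its 0 counts say little. The part of such cells in the results was not tested.

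Most of these enzyme genes were higher after NEDD9 silencing. Of the 9 genes, 8 had enough counts to be tested, 6 of the 8 rose and 1 fell. ASNS, GPT2, CBS, GOT1 and PYCR1 rose at least 2-fold, ALDH18A1 rose by less, ASS1 fell, CTH was not called and BCAT1 was too low to test. A gene was called changed at an adjusted p under 0.05 (edgeR quasi-likelihood test, Benjamini-Hochberg adjustment over all genes tested). Calls were common in these data: of 13958 genes tested, 71.4% were called, 35.5% higher and 35.9% lower, so a call alone says little. Increases of at least 2-fold were rarer, at 7.67% of the genes tested, against 5 of the 8 enzyme genes tested. The enzymes were chosen with earlier results of these data known, which limits this comparison and that of the medians below. ASNS passed the filter on low counts through its shNEDD9 libraries alone, so it could enter the test only as a gene that is higher there; without it, 4 of 7 rose at least 2-fold. The median log2 fold change was 1.20 over the 8 enzyme genes, with ASNS kept in, and 0.00 over all tested genes. In cultures measured as a whole, a larger amount of an mRNA per cell and a larger share of cells that hold it cannot be told apart.

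**Figure D1:**
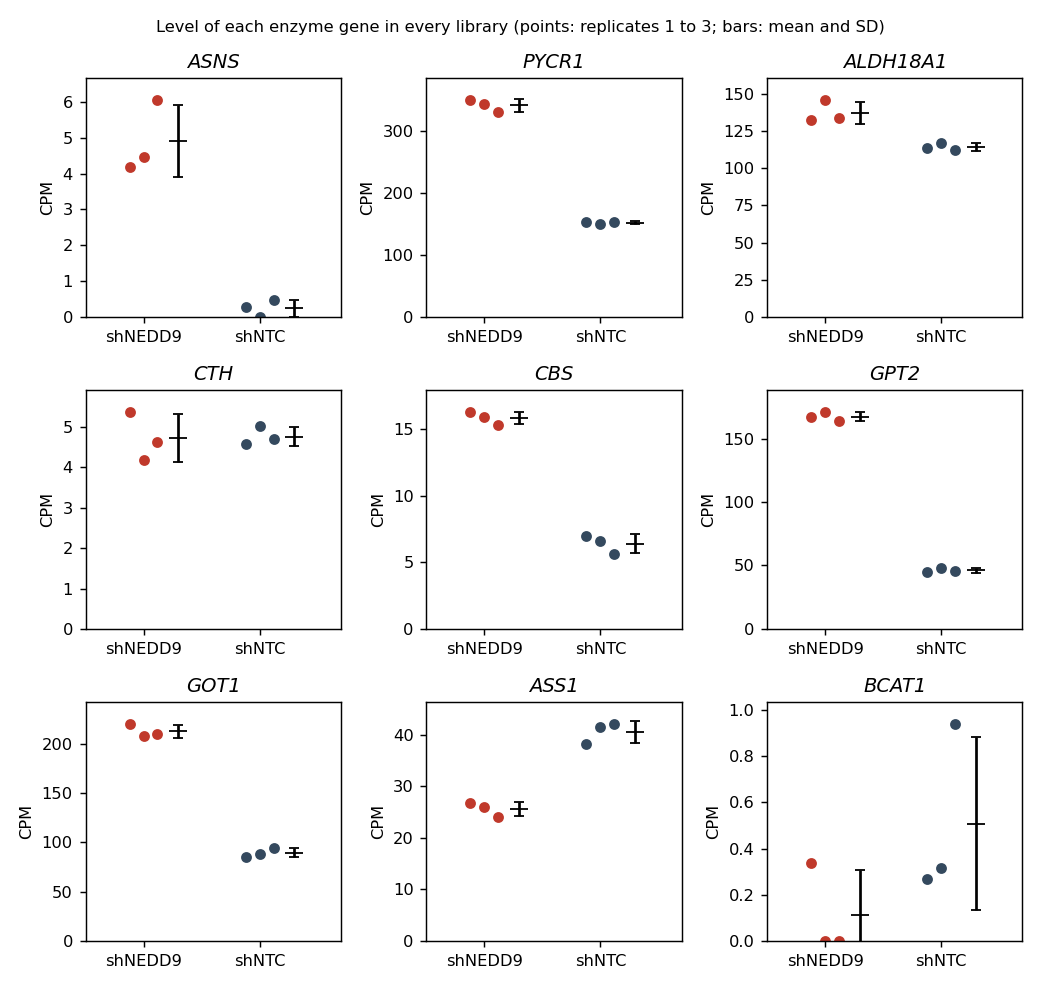
Level of each of the 9 enzyme genes in CPM (vertical axes, from 0) in the shNEDD9 and shNTC libraries. Points are the 3 replicates in order and bars the mean and SD; the 2 groups lie apart for ASNS, PYCR1, ALDH18A1, CBS, GPT2, GOT1 and ASS1 and overlap for CTH and BCAT1, where the groups lay apart for 71.8% of all tested genes.

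ASNS (ENSG00000070669, GRCh38 chromosome 7, 97852118 to 97872542, minus strand) had the largest increase of the set, from very few counts. It had 25, 35 and 60 counts in the shNEDD9 libraries and 2, 0 and 3 counts in the shNTC libraries. Scaled to depth, this was 4.20, 4.45 and 6.05 CPM in shNEDD9 and 0.27, 0.00 and 0.47 CPM in shNTC. Every shNEDD9 library was thus several times above the highest shNTC library, while each shNTC library was at or below the 3 counts taken as the floor of detection. The fitted log2 fold change was 4.02 (SE 0.42, edgeR adjusted p = 7.86e-21), or 16.2-fold, with the limit that no shNTC library reached the count filter. It was higher than that of 99.9% of the other tested genes. With the counts of each group pooled, the ratio was 17.4 with an exact 95% binomial interval of 7.25 to 54.6, which covers counting error only. Without shNTC replicate 3 the fitted increase was 24.5-fold.

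ASNS shares most of its coding sequence with another annotated gene. In GENCODE release 29, which holds all identifiers of the table, a longer gene on the same strand, AC079781.5 (ENSG00000284707, 97851688 to 97972985), runs across ASNS and uses many of its exons. Of the 4455 exonic bases of ASNS, 1985 (44.6%) also belong to AC079781.5, and of its 1752 coding bases 1683 (96.1%) do. A read that lies in exons of both genes fits neither gene alone, and featureCounts leaves such reads uncounted unless told otherwise. Which setting applied is not given in the sources used here. AC079781.5 itself had 0, 1 and 2 counts in shNEDD9 and 1, 0 and 0 in shNTC, so its row held almost no reads. When told otherwise, featureCounts counts such a read for both genes. Reads lying wholly in shared exons were thus hardly counted for AC079781.5 or for ASNS, if the counting used these exons. The values of ASNS given above then rest on the 2470 exonic bases that it does not share, which hold little of its coding sequence. Its whole mRNA was not measured. With both rows summed, the log2 fold change was 3.81 (edgeR adjusted p = 1.69e-20). Reads left uncounted are in neither row, so this sum cannot restore them and does not address the overlap.

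**Figure D2:**
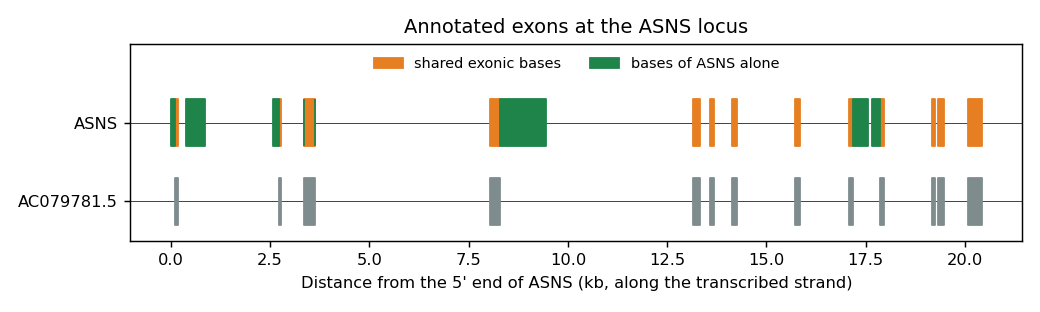
Exons annotated in GENCODE 29 for ASNS and, below, for AC079781.5 within the ASNS locus, by distance from the start of ASNS in kb along the transcribed strand. Shared bases (1985) are orange and bases of ASNS alone (2470) green; the longest block of ASNS alone holds 1163 bases.

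The promoter of ASNS is known for a short element through which ATF4 and C/EBP proteins act in human cells, with the core TGATGNAA (TTNCATCA on the other strand). This core was looked for on both strands of the RefSeq promoter windows (GRCh38.p14), which run from 250 bases before to 50 bases after a transcription start. Windows were held for 7 of the 9 genes, without PYCR1 and GPT2. Those of ASNS, GOT1 and BCAT1 held the core, each in 1 window, whereas none was found in the windows of ALDH18A1, CTH, CBS and ASS1. By gene this was 3 of 7, against 4.46% of the 27305 genes with a window. By window it was 3 of 15, 5 of them of BCAT1, against 3.62% of all 35116 windows. Both counts include ASNS, from whose promoter the core is known, so that match was given in advance. The bases around the 3 matches are shown because they set side by side the gene that rose most, a gene that rose more than 2-fold and a gene that was barely detected. The match is in capitals, and each sequence is read 5′ to 3′ on the minus strand, on which all 3 genes lie. In ASNS (chr7:97872423-97872522) the last base of the match is 61 bases before the start site, in BCAT1 (chr12:24949102-24949195) 41 bases, and in GOT1 (chr10:99430769-99430868), where it is on the other strand, 191 bases.
ASNS: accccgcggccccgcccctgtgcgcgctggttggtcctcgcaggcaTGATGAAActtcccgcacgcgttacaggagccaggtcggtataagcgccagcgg
GOT1: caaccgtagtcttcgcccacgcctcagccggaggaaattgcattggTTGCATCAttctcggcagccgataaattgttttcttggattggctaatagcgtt
BCAT1: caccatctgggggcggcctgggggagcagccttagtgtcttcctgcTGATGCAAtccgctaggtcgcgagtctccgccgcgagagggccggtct
A match is only a run of letters, and whether any protein binds there was not measured.

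Both steps of proline synthesis were higher in shNEDD9 cells, the last one far more than the first. PYCR1 (ENSG00000183010, chromosome 17, 81932384 to 81942412), which reduces pyrroline-5-carboxylate to proline, had 349.9, 344.3 and 330.4 CPM in shNEDD9 and 153.4, 149.6 and 152.9 CPM in shNTC. The groups were far apart compared with their spread, at 341.6 ± 10.0 CPM against 152 ± 2.10 CPM (SD, n = 3 each). The log2 fold change was 1.16 (SE 0.04, edgeR adjusted p = 3.12e-225), a 2.23-fold increase. ALDH18A1 (ENSG00000059573, chromosome 10, 95605929 to 95656706), which carries out the first steps from glutamate, had 132.3, 145.7 and 133.8 CPM in shNEDD9 and 113.2, 117.2 and 112.1 CPM in shNTC. The groups did not overlap, but the lowest shNEDD9 library was close to the highest shNTC library. Its increase was 1.21-fold (log2 fold change 0.27, SE 0.05, edgeR adjusted p = 4.92e-09), and it was not called in a test against a fold of 1.5 (edgeR glmTreat adjusted p = 1). In PYCR1, 14.1% of the exonic bases are shared with MYADML2 on the same strand and 29.7% with genes of either strand, and for ALDH18A1 the annotation shows 0 shared bases.

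The transsulfuration pair split, with CBS higher and CTH not called. CBS (ENSG00000160200, chromosome 21, 43053191 to 43076943), the entry enzyme, had 16.3, 15.9 and 15.3 CPM in shNEDD9 and 6.99, 6.60 and 5.63 CPM in shNTC. All shNEDD9 libraries stood well above all shNTC libraries. The log2 fold change was 1.30 (SE 0.15, edgeR adjusted p = 6.36e-17), or 2.46-fold. CBS has a near-identical copy in GRCh38, CBSL (ENSG00000274276, chromosome 21, 6444869 to 6468040), and the 2563 bases of the longest coding transcript of CBSL differ from a CBS transcript by 1 base. Reads cannot be split reliably between them, so the level of CBS alone is uncertain. The CBSL row had 10.9, 12.6 and 12.5 CPM in shNEDD9 and 6.72, 4.40 and 5.63 CPM in shNTC. Summed, the 2 rows gave 27.8 ± 0.65 CPM in shNEDD9 and 11.99 ± 1.498 CPM in shNTC (SD, n = 3 each), with a log2 fold change of 1.18 (edgeR adjusted p = 4.34e-25).

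CTH (ENSG00000116761, chromosome 1, 70411218 to 70439851), which releases cysteine from cystathionine, had 5.37, 4.20 and 4.64 CPM in shNEDD9 and 4.57, 5.03 and 4.70 CPM in shNTC. The libraries of the 2 groups were interleaved. With 16 to 46 counts per library its log2 fold change was -0.01 (SE 0.22, edgeR adjusted p = 0.976), and the sign changed with the processing. At this depth an SE of 0.22 leaves room for a modest difference in either direction.

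The aspartate and alanine aminotransferases were both more than 2-fold higher. GPT2 (ENSG00000166123, chromosome 16, 46884378 to 46931297), which makes alanine from pyruvate in mitochondria, had 166.8, 170.9 and 163.8 CPM in shNEDD9 and 44.5, 47.8 and 46.01 CPM in shNTC. This was the largest increase among the well-counted enzymes, at 3.65-fold (log2 fold change 1.87, SE 0.05, edgeR adjusted p = 1.97e-254), above 98.6% of the other tested genes. GOT1 (ENSG00000120053, chromosome 10, 99396870 to 99431569), the cytosolic aspartate aminotransferase of the malate-aspartate shuttle, had 219.9, 207.8 and 209.9 CPM in shNEDD9 and 85.3, 88.6 and 94.1 CPM in shNTC. It rose 2.38-fold (log2 fold change 1.25, SE 0.04, edgeR adjusted p = 5.83e-173), and again every shNEDD9 library was well above every shNTC library. A gene on the opposite strand, AL391684.1, shares 19.3% of the exonic bases of GOT1, and whether strand was used in the counting is not given in those sources.

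ASS1 was the exception among the well-counted enzymes. ASS1 (ENSG00000130707, chromosome 9, 130444929 to 130501274), the argininosuccinate synthase that uses aspartate, had 26.7, 26.1 and 24.0 CPM in shNEDD9 and 38.2, 41.5 and 42.1 CPM in shNTC. All shNEDD9 libraries lay below all shNTC libraries. Its log2 fold change was -0.67 (SE 0.09, edgeR adjusted p = 2.36e-14), a 1.59-fold decrease, which was not called against a fold of 1.5 (edgeR glmTreat adjusted p = 0.204). ASS1 has many processed pseudogenes that can share reads with it, so its level is somewhat uncertain.

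BCAT1 (ENSG00000060982, chromosome 12, 24810022 to 24949459) was hardly detected. It had 2, 0 and 0 counts in the shNEDD9 libraries and 2, 1 and 6 counts in the shNTC libraries, and did not pass the filter on low counts. Pooled over each group, the ratio of shNEDD9 to shNTC was 0.161, with an exact 95% binomial interval of 0.0169 to 0.779 that covers counting error only. Only shNTC replicate 3, with 6 counts, stood above the floor of 3 counts. Without a count filter it had an edgeR adjusted p of 0.0528, and with DESeq2 an adjusted p of 0.167.

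**Figure D3:**
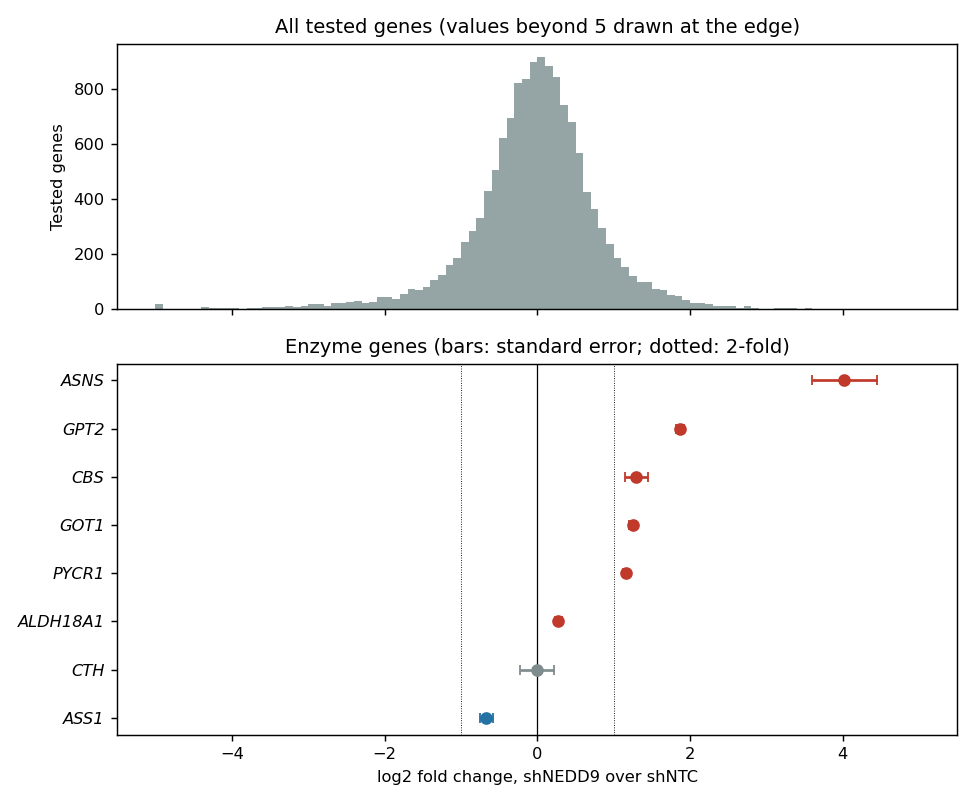
Above, the number of tested genes (vertical axis) by log2 fold change of shNEDD9 over shNTC; below, the 8 tested enzyme genes on the same axis with their standard errors, red if called higher, blue if called lower and grey if not called. The bulk of all genes lies within the dotted 2-fold lines, and ASNS, GPT2, CBS, GOT1 and PYCR1 lie beyond the upper one.

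The enzymes differed widely in level. The exonic sequence used here joins the exons of all annotated transcripts of a gene and can be far longer than 1 transcript. For CBS it holds 6786 bases, against 2583 in 1 CBS transcript, so places in the order depend on the annotation. Per kb of exonic sequence that a gene does not share on its own strand, PYCR1 was highest in both groups, at 137.8 ± 4.05 CPM per kb in shNEDD9 and 61.3 ± 0.85 in shNTC (SD, n = 3 each). In shNEDD9 it was followed by GOT1 (63.1 ± 1.91 CPM per kb), ALDH18A1 (36.5 ± 1.96), GPT2 (26.3 ± 0.57), ASS1 (8.39 ± 0.46) and CBS (2.33 ± 0.07), each above the next in every library. ASNS (1.98 ± 0.41 CPM per kb) overlapped with both CBS and CTH (1.96 ± 0.25), so these neighbours did not differ beyond their spread. The places of ASNS and CBS depend on how reads were assigned. All 4455 exonic bases of ASNS would apply only if reads in shared exons were counted for it. The near-empty AC079781.5 row, described above, does not show such reads. In that case ASNS would stand at 1.0997 ± 0.226 CPM per kb in shNEDD9, below CTH in every library. CBS with CBSL summed would stand at 4.10 ± 0.10 in shNEDD9. In shNTC the order was another one. ALDH18A1 (30.3 ± 0.71 CPM per kb) was above GOT1 (26.5 ± 1.32), and ASS1 (13.3 ± 0.69) above GPT2 (7.25 ± 0.26). CTH (1.97 ± 0.10) was above the CBS row alone (0.94 ± 0.10). With CBSL summed, CBS would stand at 1.77 ± 0.22 in shNTC, from 1.62 to 2.02, and overlap with CTH (1.89 to 2.08). ASNS was at 0.10 ± 0.10 and BCAT1 at 0.04 ± 0.03, and the libraries of these 2 genes overlapped. Within a group, the replicates of PYCR1, ALDH18A1, GPT2, GOT1 and ASS1 varied by 1.39 to 5.50% (coefficient of variation of CPM). CTH reached 12.5% in shNEDD9 and CBS 10.9% in shNTC. The genes with few counts varied most, ASNS by 20.5% in shNEDD9 and 95.7% in shNTC and BCAT1 by 173.2% in shNEDD9 and 73.8% in shNTC.

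The isoenzymes of GOT1 and GPT2 that separate genes encode had smaller log2 fold changes than these. GOT2, the mitochondrial counterpart of GOT1, rose by 0.77 (SE 0.04, edgeR adjusted p = 4.04e-79). GOT1 held 49.8 ± 0.75% of the counts of the pair in shNEDD9 and 41.8 ± 1.14% in shNTC (SD, n = 3 each; exact permutation test, two-sided, p = 0.1, the lowest that 3 against 3 libraries can give). The ranges of the 2 groups did not overlap.

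GPT, the cytosolic alanine aminotransferase, was low, at 1.75 ± 0.25 CPM in shNEDD9 and 2.27 ± 0.13 CPM in shNTC (SD, n = 3 each), with a log2 fold change of -0.40 that was not called (edgeR adjusted p = 0.268). GPT2 accordingly held 99.0 ± 0.15% of the counts of both genes in shNEDD9 and 95.3 ± 0.40% in shNTC (SD, n = 3 each; exact permutation test, two-sided, p = 0.1). BCAT2, the mitochondrial branched-chain aminotransferase, was expressed at 91.9 ± 3.72 CPM in shNEDD9 and 72.7 ± 2.13 CPM in shNTC (SD, n = 3 each) and rose by 0.34 (SE 0.06, edgeR adjusted p = 2.22e-09). BCAT1 held at most 0.35% of the counts of this pair in any shNEDD9 library and at most 1.24% in any shNTC library. These are shares of counts, which also depend on the length of each transcript.

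**Figure D4:**
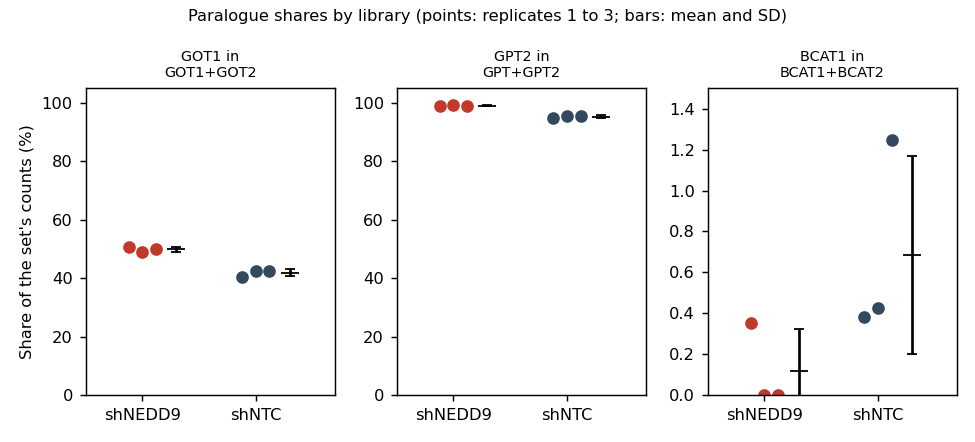
Share of the counts of an isoenzyme set held by GOT1, GPT2 and BCAT1 in % (vertical axes from 0; the BCAT1 axis ends at 1.5%) in the shNEDD9 and shNTC libraries. Points are replicates and bars the mean and SD; the shares of GOT1 and GPT2 are higher in every shNEDD9 library than in any shNTC library.

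Other enzyme genes of the same pathways were called about as often as genes in general. Of 72 such genes, 57 were tested, of which 23 (40.4%) rose and 18 (31.6%) fell, where 35.5% and 35.9% of all tested genes did. The median of their log2 fold changes was 0.04. Of these 57, 3 rose and 7 fell at least 2-fold, where 7.67% and 9.22% of all tested genes did. P4HA3, NOS1 and NOS3, 3 of the 7, passed the filter on low counts through the shNTC libraries alone. The counts of the single lists below are small and are to be read against the same shares of all genes, 35.5% higher and 35.9% lower. Among 11 tested genes of asparagine, aspartate, alanine and glutamate metabolism, 4 rose and 5 fell (median -0.19). The 2 glutamate carboxypeptidase genes fell most. NAALAD2 fell by 1.83 on the log2 scale (SE 0.07, edgeR adjusted p = 3.59e-163), and FOLH1, which encodes prostate-specific membrane antigen, fell by 1.68 (SE 0.05). The asparaginase gene ASPG fell by 1.12 (SE 0.28, edgeR adjusted p = 9.37e-05), at 46 counts over shNEDD9 and 72 over shNTC. ASRGL1, another asparaginase gene and far more abundant, rose by 0.47 (SE 0.07, edgeR adjusted p = 3.32e-12). It averaged 66.0 CPM in shNEDD9 and 48.5 CPM in shNTC. GLUD2, a glutamate dehydrogenase gene that resembles the far more abundant GLUD1, rose by 1.02 (SE 0.36, edgeR adjusted p = 0.00787) and may share its reads; with DESeq2 it was not called (adjusted p = 0.0672).

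Of 8 tested genes of proline and ornithine metabolism, 4 rose and 2 fell (median 0.19). P4HA1, a prolyl hydroxylase subunit for collagen, rose by 1.54 (SE 0.06, edgeR adjusted p = 1.42e-128), whereas its relative P4HA3 fell by 2.43 (SE 0.34), at 4, 8 and 6 counts in shNEDD9 and 33, 11 and 27 in shNTC, and the dipeptidase gene PEPD, which frees proline from dipeptides, by 0.63 (SE 0.07). The proline oxidase genes PRODH and PRODH2 had 0 and 1 counts over all 6 libraries. The next enzyme of proline breakdown, ALDH4A1, was not called (37.3 ± 3.33 CPM in shNEDD9 and 36.5 ± 4.87 CPM in shNTC, SD, n = 3 each, log2 fold change 0.05, edgeR adjusted p = 0.584). A gene on the same strand shares 41.1% of the exonic bases of ALDH4A1.

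Of 17 tested genes of the methionine cycle, transsulfuration and cysteine breakdown, 7 rose and 5 fell (median 0.08). Without shNEDD9 replicate 3, or with DESeq2, 4 rose. AHCY, which releases homocysteine, the substrate of CBS, rose by 1.12 (SE 0.03, edgeR adjusted p = 1.38e-294), at 550 ± 11.1 CPM in shNEDD9 and 253.1 ± 7.79 CPM in shNTC (SD, n = 3 each). SQOR, which oxidises hydrogen sulfide, fell by 1.09 (SE 0.11), AHCYL2 by 0.72 (SE 0.08) and CSAD, an enzyme of taurine synthesis, by 0.61 (SE 0.12). The weakest of these 4 calls was that of CSAD (edgeR adjusted p = 4.16e-07).

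Of 7 tested urea cycle and arginine genes, 2 rose and 3 fell (median -0.20). ASL, which acts directly after ASS1, was not called (30.9 ± 1.20 CPM in shNEDD9 and 33.2 ± 1.53 CPM in shNTC, SD, n = 3 each, edgeR adjusted p = 0.283). The nitric oxide synthase genes NOS3 and NOS1 fell, both at low counts. NOS3 had 6, 8 and 4 counts in shNEDD9 and 38, 13 and 32 in shNTC, a log2 fold change of -2.65 (SE 0.33). NOS1 had 7, 2 and 2 counts in shNEDD9 and 25, 9 and 17 in shNTC, a log2 fold change of -2.64 (SE 0.41). ARG2, the mitochondrial arginase, fell by 0.38 (SE 0.07), and NAGS rose by 0.76 (SE 0.25, edgeR adjusted p = 0.00348), a call lost after thinning to the smallest total (edgeR adjusted p = 0.0803). OTC had 0 counts and CPS1 2 counts over all libraries, both of them urea cycle genes of the liver.

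Of 14 tested branched-chain genes, 6 rose and 3 fell (median 0.07), none of them by as much as 2-fold. PPM1K, the phosphatase that activates the branched-chain keto acid dehydrogenase, fell by 0.82 (SE 0.09, edgeR adjusted p = 1.33e-18), and BCKDK, the kinase that opposes it, rose by 0.43 (SE 0.08, edgeR adjusted p = 1.19e-07). DLD, a shared subunit of that and other dehydrogenases, rose by 0.47 (SE 0.04), and AUH, an enzyme of leucine breakdown, fell by 0.73 (SE 0.12).

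**Figure D5:**
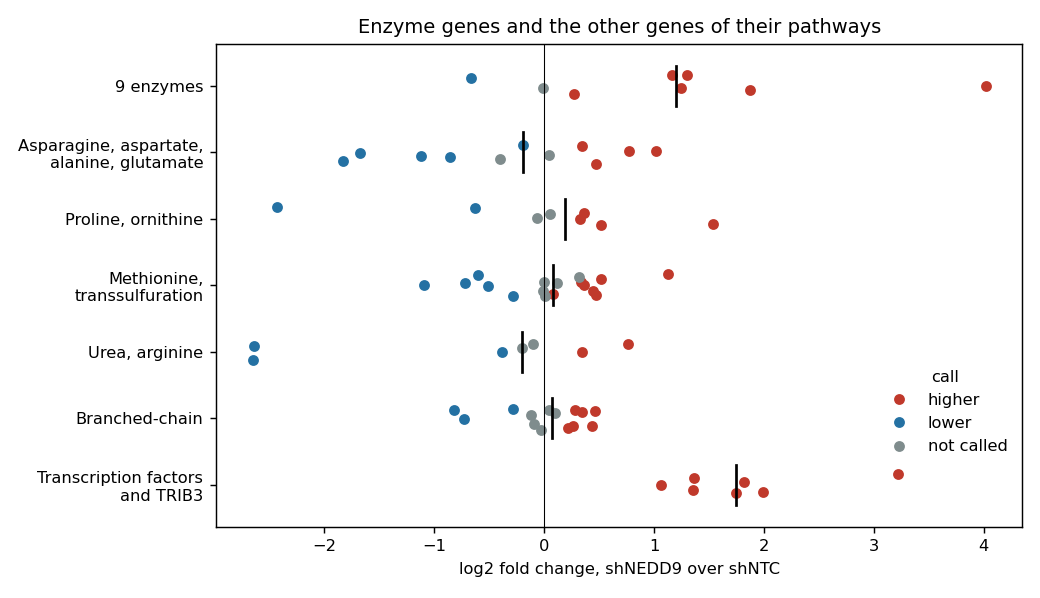
log2 fold change of shNEDD9 over shNTC (horizontal axis) for every tested gene of the 9 enzymes, of 5 pathway lists and of a list of 7 regulators; red points were called higher, blue lower and grey not called, and black lines are list medians. The median of the 9 enzymes (8 tested, ASNS among them) is 1.20 and those of the pathway lists lie between -0.20 and 0.19.

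The 7 genes chosen as known regulators of amino acid response genes were all higher, each at least 2-fold, where 35.5% of all tested genes were higher and 7.67% at least 2-fold higher. The list was chosen with earlier results of these data known. ATF4 had 497.1, 490.3 and 502.5 CPM in shNEDD9 and 200.2, 183.8 and 194.8 CPM in shNTC, a log2 fold change of 1.35 (SE 0.03). The C/EBP genes CEBPB and CEBPG, whose proteins pair with ATF4, rose by 1.99 (SE 0.08) and 1.82 (SE 0.05). DDIT3, a stress-induced member of the same family, rose by 1.37 (SE 0.07), ATF3 by 3.22 (SE 0.11), TRIB3, a pseudokinase gene induced by ATF4, by 1.74 (SE 0.04), and MYC by 1.07 (SE 0.03). The weakest of the 7 calls was that of DDIT3 (edgeR adjusted p = 1.30e-76). Whether these levels bear on those of the enzymes was not tested.

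The genes whose levels over the 6 libraries most resembled those of ASNS were looked for among tested genes whose mean reached 5 CPM. Likeness was the Euclidean distance between profiles of log2 CPM (prior count 2), each taken relative to its shNTC mean. The nearest 5 were ADM2 (distance 1.02), SESN2 (1.03), SNTB1 (1.08), ATF3 (1.12) and C5orf34 (1.14), whose log2 fold changes ran from 2.76 to 3.55. ASNS itself had 0 to 60 counts per library.

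Most of the enzyme genes that changed did so by more than the genes around them. The 20 nearest tested genes, 10 on each side, had a median log2 fold change of -0.23 around ASNS, -0.21 around CBS, 0.09 around GPT2, 0.07 around GOT1 and 0.26 around PYCR1. The stretch that such neighbours covered ran from 0.39 Mb around PYCR1 to 18.8 Mb around GPT2, so not all of them lie close by. None of these neighbours rose as much as the enzyme gene among them (0 of 20 in each case). Around ASS1 the median was -0.08, and all 20 neighbours had a higher log2 fold change than ASS1. ALDH18A1 (0.27) lay within its neighbourhood, with 8 of 20 neighbours above it. Of the 20 neighbours, between 4 (ASNS and ASS1) and 13 (PYCR1) were called higher and between 4 (GPT2) and 11 (ASNS and CBS) lower, where 35.5% and 35.9% of all tested genes were.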

How the data were processed

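RNA of 6 VCaP samples was purified with a column kit and sequenced from strand-specific total RNA libraries, per the labels' protocols. The authors deposited whole-number counts of reads per gene, not normalised. FastQC 0.11.5, cutadapt 1.9, STAR 2.5.3a, featureCounts, Subread 1.6.2 and the builds hg19 and GRCh38 are named in the submitters' processing notes. The annotation, strand and overlap settings are not given in the sources used here. 1 row had no identifier and was dropped. Gene models came from GENCODE 29 (GRCh38).

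Counts were tested with edgeR 4.0.16 in R 4.3.3 (glmQLFit with robust estimation, glmQLFTest) with TMM factors, filterByExpr at a minimum count of 10 and no covariate, shNEDD9 over shNTC, on all genes. SE is the log2 fold change over the root of the F statistic. Alternatives used DESeq2 1.42.0 and limma 3.58.1 (voom), among others. Replicates of a group differed by a little more than counting noise (chi-square per degree of freedom of 1.14 to 1.21), so each library counted as 1 sample. The design text calls the libraries biological triplicates, and p-values reflect their spread alone, which may be technical. The procedure was tested on simulated data. The enzymes and lists were chosen with earlier results of these data known. Named were all 9 enzymes and NEDD9, up to 4 called genes of the largest change per pathway list (mean of at least 1 CPM), isoenzymes, 7 regulators and the 5 profiles nearest ASNS. Some items under this rule are not reported here. ASRGL1, PRODH, PRODH2, ALDH4A1, ASL, OTC and CPS1 were added for their place in the pathways after their values were seen.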

Additional observations from a re-analysis of the deposited data

How the results depend on the processing

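The calls and log2 fold changes of the enzymes, the counts over the pathway lists and the log2 fold changes of 32 other named genes were recomputed under 10 other settings and with each library left out in turn. The isoenzyme shares were recomputed from TMM-scaled values and with each library left out; levels per kb, list medians, neighbours and nearest profiles were not recomputed in this way. The counts of enzymes called 2-fold higher (5) and 2-fold lower (0) were the same in all of them. The test against a fold of 1.5 (glmTreat) left 3401 genes called in all, 0 enzymes lower, and 3 higher and 8 lower genes over the pathway lists, against 9964, 1, 23 and 18; its null of a larger change makes it stricter by construction. ALDH18A1 and ASS1 were not called there. Over the other named genes 527 values kept direction and call and 12 lost the call, and ALDH4A1, not called, changed sign after thinning (-0.041) and ran from -0.052 to 0.114 with 1 library left out, negative without shNTC replicate 3. The log2 fold change of CTH changed sign, at 0.0089 with library totals alone, 0.014 without a count filter, 0.0035 with DESeq2, 0.016 with the replicate block and 0.17 after thinning to the smallest total, and ranged from -0.077 to 0.069 with 1 library left out (adjusted p of 0.641 to 1 over its alternatives, edgeR, DESeq2 or limma). Over the libraries left out, the fold of ASNS ran from 13.4 to 24.5. Deviations from the group means correlated at 0.003 to 0.006 between same-numbered replicates and at -0.0055 to 0.0005 between the other pairs. Replicates differed by little more than counting noise, so values this near 0 cannot show whether the numbers pair the samples. The replicate block gave 9834 calls and changed no call of an enzyme. The rows of CBS with CBSL and ASNS with AC079781.5 were summed as an alternative chosen after seeing the data. For ASNS the sum cannot restore reads that were counted in neither row. ASNS, CTH and BCAT1 had few counts, and 3 counts equal 0.303 to 0.932 CPM.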
